A study of Mus musculus with 7 samples.

Results

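Intermediate filament genes were followed in bulk RNA sequencing of mouse glioblastoma (GBM), the most malignant glioma of the adult brain. The 10 genes are *Gfap*, *Vim*, *Nes*, *Synm*, *Nefl*, *Ina*, *Krt8*, *Krt18*, *Krt19* and *Krt20*. They were taken by gene name from the 49492 genes of the count table and read in all 7 libraries. The 3 NSCHRas-shp53 libraries came from GBM raised in situ in adult mice, with a lentivirus injected into the ventricular-subventricular zone that carried short hairpin RNAs against *Trp53* and a constitutively active human *HRAS*. RNA of this model was taken from whole tumor tissue. The 4 NPCTKO libraries came from GBM raised by electroporating embryonic neocortical precursors in utero with Cas9 and guide RNAs against tumor suppressor genes, *Trp53* and *Nf1* among them, and RNA was taken from EGFP+ or DsRed+ tumor cells isolated by cell sorting. The labels give C57BL/6 as the strain and 3 months as the age of all 7 samples, while the methods also used reporter lines, and the reporter of each sorted sample was not stated. No tissue without tumor was included in the comparison. The model and the preparation (whole tissue or sorted cells) changed together and cannot be told apart in any difference given here. The study treats the libraries of a model as separate GBM, and the labels do not name the mouse behind each, so the p-values measure only the spread between these samples.

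Intermediate filaments are ropes of coiled-coil proteins whose subunits differ by cell type. Astrocytes build theirs from glial fibrillary acidic protein and vimentin, neural stem cells from vimentin and nestin, neurons from the neurofilament subunits and α-internexin, and epithelial cells from obligate pairs of a type I and a type II keratin. In the adult brain, *Gfap* rises in reactive astrocytes, and *Vim* and *Nes* mark progenitors, reactive glia and glioma cells.

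*Gfap*, *Nes*, *Synm* and *Nefl* were higher in NSCHRas-shp53 tumors, and *Krt20* was carried by these tumors with a single count in all NPCTKO libraries together. By edgeR, 3 of the 10 members were called higher in NSCHRas-shp53 (*Nes*, *Krt8* and *Krt20*) and 0 were called lower, of 6 that passed the filter on low counts. At an unadjusted p under 0.05, 4 were higher and 0 lower by edgeR, and 6 were higher and 0 lower by limma. Of the 16091 genes tested, 7.77% were called higher and 5.28% lower. By limma on the FPKM values, 5 members were called higher (*Gfap*, *Nes*, *Synm*, *Nefl* and *Krt20*) and 0 lower, of 8 above the filter on low FPKM. Of all 13485 genes tested there, 9.25% were called higher and 6.29% lower. A call means a Benjamini-Hochberg adjusted p under 0.05 over all genes tested. FPKM (fragments per kilobase of exon, scaled to library size) is a level per length, and CPM scales counts to the size of the library but not to length. The median log2 difference of the tested members was 1.97 by edgeR, beside -0.10 for all genes tested, and 2.19 by limma, beside -0.09. *Krt20* and *Krt8* passed the filter on counts only through their NSCHRas-shp53 values, so these shares describe the members and support nothing about them. *Krt19* was under both filters.

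**Figure D1:**
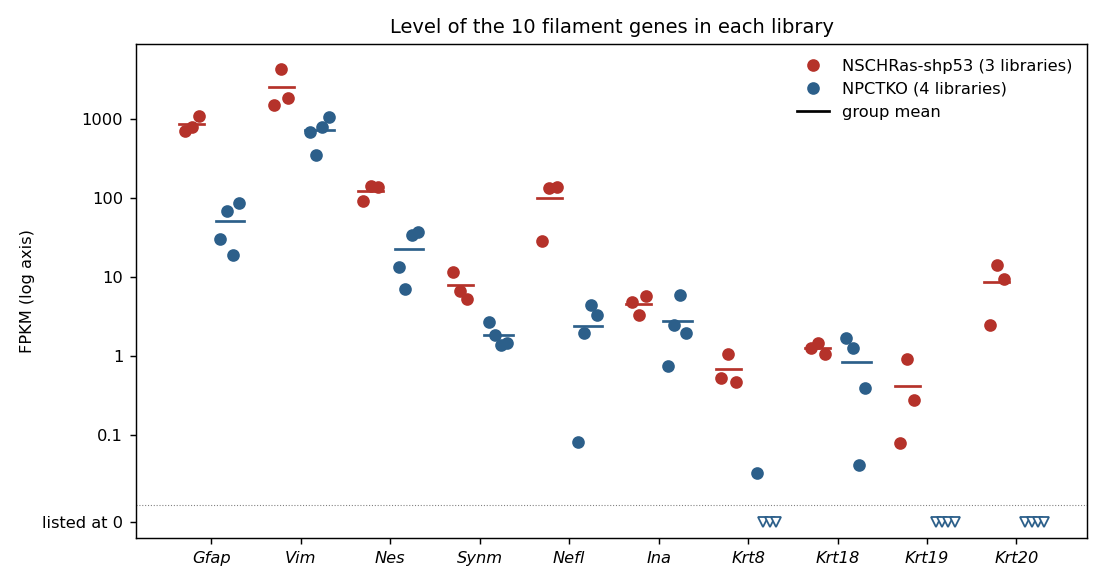
FPKM of the 10 filament genes on a log axis, with 1 point per library, NSCHRas-shp53 in red left of NPCTKO in blue, and bars at the group means. Open triangles mark values listed at 0. *Gfap*, *Vim*, *Nes*, *Synm*, *Nefl* and *Krt8* do not overlap between the models, *Ina* and *Krt18* do, and *Krt19* and *Krt20* are listed at 0 in all 4 NPCTKO libraries. The share of all genes without overlap was not computed.

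The libraries held 17529054 to 19840860 counts in NSCHRas-shp53 and 15002873 to 19247326 counts in NPCTKO. NPCTKO 1 and 2 resembled each other (Pearson r of 0.98 across genes) more than they resembled NPCTKO 3 and 4 (r of 0.82 to 0.88), where genes are not independent replicates. Their TMM factors were 0.775 and 0.764, against 0.994 to 1.17 in the other 5 libraries, and their summed macrophage and microglia markers were the highest of all. The alternatives therefore include leaving both of them out. The count table has a property that decides how the members can be read. Each of the 11015 genes contained in a longer gene has 0 counts in every library, as against 34.5% of the other genes. *Gfap* (inside Gm26668), *Synm* (inside *Ttc23*) and *Nefl* (inside the annotated span of *Nefm*) are among them, so the deposited FPKM values were used for these 3.

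Promoter sequence was available for 8 of the 10 members from RefSeq (GRCm38.p6). The 250 bases before the RefSeq start of transcription are printed for *Gfap* and *Krt20*, the glial and the keratin gene that set the models apart most, and for *Vim*, the most abundant member. RefSeq starts differ from the gene spans given below, so the *Gfap* and *Vim* stretches lie inside those spans. Each runs 5′ to 3′ on the strand of the gene, and capitals mark the letters TATAAA, a core promoter element.
Gfap, chr11:102897201-102897450, minus strand: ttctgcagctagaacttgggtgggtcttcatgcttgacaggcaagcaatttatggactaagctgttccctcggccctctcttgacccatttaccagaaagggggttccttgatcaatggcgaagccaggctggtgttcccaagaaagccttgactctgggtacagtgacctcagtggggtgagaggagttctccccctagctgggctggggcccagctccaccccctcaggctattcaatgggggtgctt
Vim, chr2:13574061-13574310, plus strand: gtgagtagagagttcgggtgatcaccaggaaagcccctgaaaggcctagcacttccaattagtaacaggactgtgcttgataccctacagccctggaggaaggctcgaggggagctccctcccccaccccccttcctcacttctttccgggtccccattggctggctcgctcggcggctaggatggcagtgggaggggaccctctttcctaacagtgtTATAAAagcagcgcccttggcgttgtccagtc
Krt20, chr11:99438154-99438403, minus strand: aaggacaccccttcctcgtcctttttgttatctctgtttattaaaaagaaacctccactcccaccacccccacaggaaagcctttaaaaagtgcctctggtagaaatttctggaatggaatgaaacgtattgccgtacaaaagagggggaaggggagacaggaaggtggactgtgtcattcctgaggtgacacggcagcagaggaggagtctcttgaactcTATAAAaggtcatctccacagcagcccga
*Vim* held TATAAA 32 to 27 bases and *Krt20* 29 to 24 bases before the start, and none of the other 6 promoters held these letters. Of all 32851 promoters in the table, 12.4% held TATAAA on either strand in the same 250 bases. The AP-1 motif TGANTCA was in 0 of the 8 members and in 6.75% of all promoters, and the STAT-type motif TTCNNNGAA was in 0 of the 8 and in 7.02% of all. TATAAA and TTCNNNGAA were searched after the expression values were known, no matches overlapped, and the absence of these letters from so short a window says nothing about a factor. The GC content of the 8 stretches ran from 48.0% in *Krt20* to 70.8% in *Ina*.

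*Gfap* encodes the filament protein of mature and reactive astrocytes and of adult subventricular stem cells. The gene lies on chromosome 11 at 102887336 to 102900912 (mm10, minus strand). Its level was 716, 789 and 1096 FPKM in NSCHRas-shp53 tumors, against 30.6, 68.3, 19.1 and 86.9 FPKM in NPCTKO cells. The lowest NSCHRas-shp53 library stood above the highest NPCTKO library, and the NPCTKO libraries spread widely among themselves, with replicates 2 and 4 high and 1 and 3 low. The difference was 4.27 on the log2(FPKM + 1) scale (SE 0.52, limma adjusted p = 0.0023), a 19.2-fold higher level. It was called in 13 of 13 alternative settings, at 3.89 or more. In bulk samples, fewer cells of a type and less RNA per cell cannot be told apart.

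Most other astrocyte genes moved the same way. Of 12 astrocyte markers (*Aqp4*, *Slc1a2*, *Aldh1l1*, *Gja1* and others, *Gfap* not among them), 10 were called higher and 0 lower by limma, with a median log2 difference of 2.96, while *S100b* had -0.65 and was not called. Their summed FPKM was 1165 to 1366 in NSCHRas-shp53 and 189 to 414 in NPCTKO, and *Gjb6* was under 0.5 FPKM in every NPCTKO library. *Gfap* differed by more than this sum did. Its FPKM divided by the astrocyte sum of the same library was 0.524, 0.678 and 0.916 in NSCHRas-shp53, against 0.123, 0.165, 0.101 and 0.260 in NPCTKO, again without overlap. With *S100b* taken out after the values were seen, it was 0.561 to 0.950 in NSCHRas-shp53 and 0.135 to 0.367 in NPCTKO. Among single markers, *Aqp4* (4.93 by limma) differed by more than *Gfap*. *Slc1a2* (4.17) and *Gja1* (4.16) differed by nearly as much, and the other markers by less. This order belongs to the log2(FPKM + 1) scale, which understates the change of low genes. As a plain ratio of mean FPKM, *Aqp4*, *Gjb6*, *Slc4a4*, *Slc1a2* and *Gja1* exceeded *Gfap*, and the other markers did not. *Gjb6* had means of 15.5 FPKM in NSCHRas-shp53 and 0.209 FPKM in NPCTKO, beside 867 and 51.2 FPKM for *Gfap*. How far the number of astrocytes in unsorted tissue enters the *Gfap* value was not tested.

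*Vim* encodes vimentin, the filament of mesenchymal cells, endothelium, immune cells and immature or reactive glia. It lies on chromosome 2 at 13573927 to 13582826 (plus strand) and shares no bases with another gene. It was the most abundant member in every library. Its counts came to 2945, 6374 and 3241 CPM in NSCHRas-shp53, against 1403, 729, 1364 and 2013 CPM in NPCTKO. The groups did not overlap, yet NSCHRas-shp53 replicate 2 alone held about as many *Vim* CPM as replicates 1 and 3 together. The log2 difference was 1.60 by edgeR (SE 0.52, adjusted p = 0.0795) and 1.77 by limma (SE 0.57, adjusted p = 0.0712), so *Vim* was not called. Of 13 alternatives, DESeq2 alone called it (1.62, adjusted p = 0.0064). Without NSCHRas-shp53 replicate 2 the edgeR difference was 1.17 (adjusted p = 0.273).

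Vimentin is shared by cells that the NSCHRas-shp53 tissue was not sorted against. By edgeR, 6 of 12 mural and fibroblast markers were called higher and 1 lower, with a median of 3.09 and a summed FPKM of 149 to 298 in NSCHRas-shp53 and 55.7 to 110 in NPCTKO. The lower one, *Cspg4*, is also a marker of oligodendrocyte precursors and made up most of the NPCTKO sums, which without it were 16.6 to 31.02 FPKM, beside 143 to 292 FPKM in NSCHRas-shp53. Sums without named genes were computed after the values were seen. *Myh11*, *Kcnj8* and *Dcn* were under 0.5 FPKM in every NPCTKO library. Of 10 endothelial markers, 3 were called higher and 0 lower, with a median of 1.71. Their sums were 224 to 532 FPKM in NSCHRas-shp53 and 45.3 to 259 FPKM in NPCTKO. *Slc2a1* alone held 235, 135 and 111 FPKM of these sums in NSCHRas-shp53, and 153, 165, 38.0 and 82.1 FPKM in NPCTKO. Of 9 macrophage and microglia markers tested, 0 were called in either direction by edgeR or limma, and 0 had an unadjusted p under 0.05 in either, with an edgeR median of -1.38 and sums of 2224 to 5417 FPKM in NSCHRas-shp53 and 417 to 18226 FPKM in NPCTKO. The part these cells have in the *Vim* value was not tested.

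*Nes* encodes nestin, a long-tailed filament protein of neural stem and progenitor cells that assembles only together with vimentin or a like partner. It lies on chromosome 3 at 87971078 to 87980451 (plus strand). Its level was 729, 766 and 867 CPM in NSCHRas-shp53, against 101, 53.0, 215 and 256 CPM in NPCTKO. The 3 NSCHRas-shp53 values lay close together, and the 4 NPCTKO values split into a low pair, replicates 1 and 2, and a higher pair, replicates 3 and 4. The log2 difference was 2.33 by edgeR (SE 0.54, adjusted p = 0.0273), 5.04-fold higher, and 2.61 by limma (SE 0.54, adjusted p = 0.0162). With NPCTKO 1 and 2 left out together, it was 1.77 by edgeR (adjusted p = 0.0139). The edgeR call was lost without NPCTKO replicate 1 (2.19, adjusted p = 0.0647) and without each of the NSCHRas-shp53 replicates (2.27 to 2.41, edgeR adjusted p = 0.0681, 0.0864 and 0.1001). The limma call was lost without NSCHRas-shp53 replicate 2 or 3 (adjusted p = 0.0683 and 0.0718). Nestin is also made by endothelial cells. *Nes* divided by the endothelial sum overlapped between the models, at 0.172 to 0.616 in NSCHRas-shp53 and 0.0277 to 0.750 in NPCTKO. The value of 0.750 was that of NPCTKO 3, whose endothelial sum was 45.3 FPKM, 38.0 FPKM of it *Slc2a1*. The part of endothelial cells in the *Nes* value was not tested.

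*Synm* encodes synemin, a linker-like filament protein that joins vimentin, desmin or glial filaments to other structures of the cell. It lies on chromosome 7 at 67730160 to 67759742 (minus strand). Its FPKM, summed over 2 rows, was 11.6, 6.71 and 5.33 in NSCHRas-shp53, against 2.74, 1.86, 1.40 and 1.46 in NPCTKO. Every NSCHRas-shp53 library was above every NPCTKO library, although the level was under 1% of that of *Vim* throughout. The difference was 1.59 on the log2(FPKM + 1) scale (SE 0.31, limma adjusted p = 0.013) and was called in 13 of 13 alternatives, at 1.31 or more. The library kit did not mark strand, so fragments from *Synm* and from *Ttc23* on the opposite strand cannot be told apart.

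*Nefl* encodes the light neurofilament subunit, the core on which the axonal filaments of neurons are built. It lies on chromosome 14 at 68083863 to 68089095 (plus strand), within the annotated span of its neighbor *Nefm*. Its level was 29.2, 135 and 139 FPKM in NSCHRas-shp53, against 0.0820, 1.96, 4.39 and 3.30 FPKM in NPCTKO. Replicates 2 and 3 of NSCHRas-shp53 stood high and replicate 1 lower, while NPCTKO 1 was near 0. The difference was 4.82 on the log2(FPKM + 1) scale (SE 0.70, limma adjusted p = 0.0041), the largest among the members on that scale. It was called in 13 of 13 alternatives, at 4.11 or more. 

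The other neurofilament genes differed less. *Nefm*, the medium subunit, had 57.5, 151 and 189 CPM in NSCHRas-shp53, against 0.875, 8.81, 27.9 and 31.2 CPM in NPCTKO. Its groups did not overlap, but the log2 difference of 2.94 was not called by edgeR (SE 0.95, adjusted p = 0.0772), whereas 3.12 by limma was (SE 0.82, adjusted p = 0.0382). Only 5 of 13 alternatives to the edgeR fit and 6 of 13 to the limma fit called it, and the limma call was lost without NPCTKO replicate 1 or 2, without both of them, or without NSCHRas-shp53 replicate 2 or 3 (adjusted p = 0.0571 to 0.150). *Ina*, which encodes α-internexin, a subunit that neurons make early in development, lies on chromosome 19 at 47014698 to 47025327 (plus strand). It had 15.9, 10.5 and 16.5 CPM in NSCHRas-shp53, against 2.29, 7.41, 13.2 and 4.65 CPM in NPCTKO, so that NPCTKO 3 fell among the NSCHRas-shp53 values. The log2 difference of 1.05 (SE 0.57, edgeR adjusted p = 0.253) was not called, nor was it in any of 13 alternatives.

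Within a library, the balance of neurofilament subunits was reversed between the models. The ratio of *Nefm* to *Nefl* FPKM was 0.471, 0.451 and 0.422 in NSCHRas-shp53, against 2.44, 1.10, 2.02 and 2.61 in NPCTKO. The light subunit thus exceeded the medium one in all 3 NSCHRas-shp53 libraries and in 0 of 4 NPCTKO libraries. The ratio of *Ina* to *Nefl* was 0.166, 0.0250 and 0.0413 in NSCHRas-shp53, against 9.04, 1.27, 1.36 and 0.590 in NPCTKO. Neither ratio overlapped, and neither was tested. Both genes of the first ratio share sequence span and the kit does not mark strand, so the split of fragments between them rests on how the FPKM values were estimated.

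**Figure D2:**
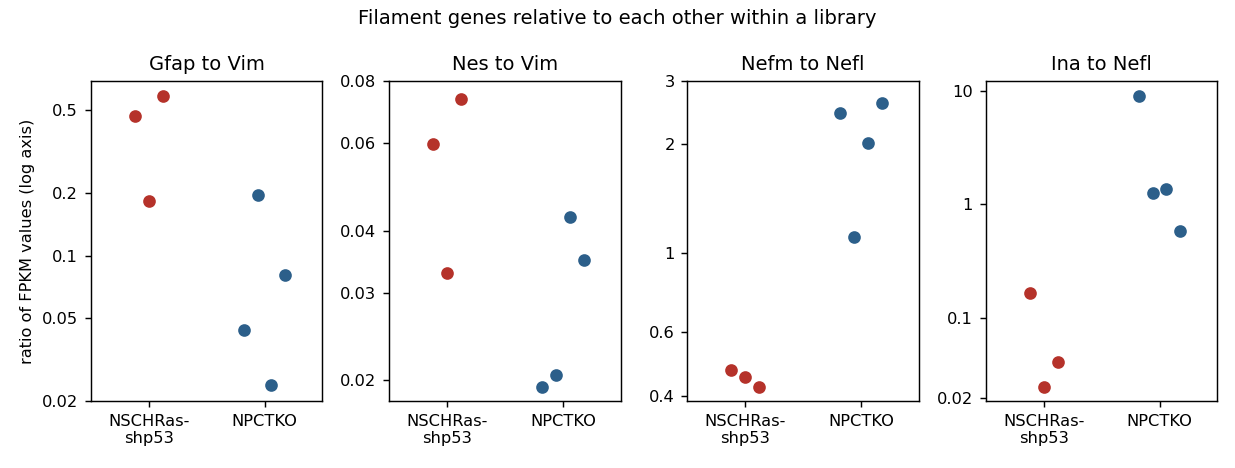
Ratios of FPKM values of filament genes within each library, on log axes, with NSCHRas-shp53 in red left of NPCTKO in blue. *Nefm* to *Nefl* lies at 0.422 to 0.471 in NSCHRas-shp53 and at 1.10 to 2.61 in NPCTKO, whereas *Gfap* to *Vim* and *Nes* to *Vim* overlap.

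Most general neuronal genes were also higher in the unsorted tissue. Of 11 neuron markers tested (*Syt1*, *Snap25*, *Rbfox3*, *Syp* and others, no filament genes among them), 9 were called higher and 0 lower by limma, with a median of 2.32, and *Map2* (-0.27) and *Tubb3* (0.16) were not called. Their summed FPKM was 360 to 587 in NSCHRas-shp53 and 89.5 to 172 in NPCTKO, and *Gad2* was under 0.5 FPKM in every NPCTKO library. *Nefl* did not follow this sum within NSCHRas-shp53. Replicate 1 had the largest neuronal sum, 587 FPKM, and the smallest *Nefl* level, while replicates 2 and 3 had sums of 370 and 360 FPKM. *Nrgn* alone held 271 FPKM of the sum in replicate 1, beside 71.3 and 59.7 FPKM in replicates 2 and 3. Single markers went both ways. *Snap25* was highest in replicate 1 (113, 30.2 and 48.1 FPKM in replicates 1 to 3), and *Stmn2* was lowest there (28.6, 93.0 and 70.7 FPKM). *Nefl* over the neuronal sum was 0.0497, 0.365 and 0.385 in NSCHRas-shp53, against 0.0007, 0.0176, 0.0256 and 0.0369 in NPCTKO. With *Tubb3* and *Map2* taken out of the sum, it was 0.0572, 0.502 and 0.494 in NSCHRas-shp53, against 0.0035, 0.0625, 0.176 and 0.155 in NPCTKO, and the models overlapped through NSCHRas-shp53 replicate 1. How far neurons of the surrounding brain enter the *Nefl* value was not tested.

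**Figure D3:**
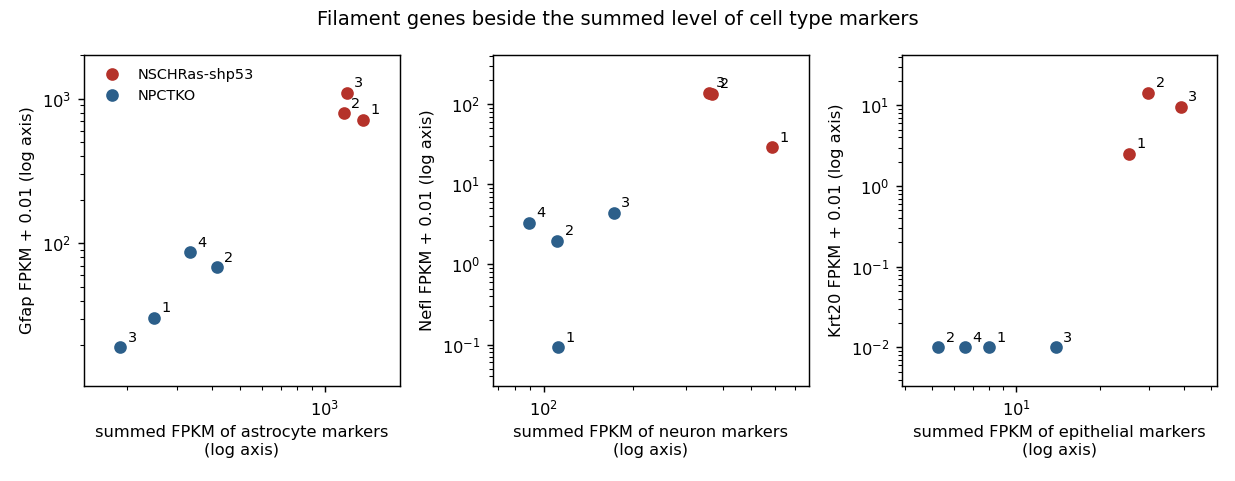
FPKM of *Gfap*, *Nefl* and *Krt20* (vertical, log axes, with 0.01 added) against the summed FPKM of astrocyte, neuron and epithelial markers (horizontal, log axes), 1 point per library with its replicate number, NSCHRas-shp53 in red and NPCTKO in blue. *Nefl* is lowest within NSCHRas-shp53 in replicate 1, where the neuronal sum is highest at 587 FPKM, 271 FPKM of it *Nrgn*.

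Keratins were a minor class next to the glial filaments, and among the keratin members *Krt20* set the models apart most. The 54 keratin genes of the table summed to 26.2, 45.2 and 44.7 CPM in NSCHRas-shp53, against 26.2, 39.6, 17.5 and 14.3 CPM in NPCTKO, so the class as a whole overlapped while its makeup differed. *Krt20* encodes a type I keratin of intestinal epithelium, urothelium and Merkel cells, and lies on chromosome 11 at 99428403 to 99438150 (minus strand). It had 120, 497 and 451 counts in NSCHRas-shp53, or 6.56, 25.2 and 19.5 CPM, against 0, 0, 0 and 1 count in NPCTKO. All 3 NSCHRas-shp53 libraries were far above the counting floor, and the lowest of them was replicate 1. The ratio of the summed rates was 1108, with a 95% exact interval of 198 to 43810 that covers counting error only and rests on that single NPCTKO count. edgeR called it (adjusted p = 0.0026), with a fitted log2 difference of 9.55 that depends on the prior count and is no bound. On the log2(FPKM + 1) scale, which understates the change of low genes, the difference was 3.05 (SE 0.46, limma adjusted p = 0.0046). Both fits kept the call in 13 of 13 alternatives.

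*Krt8* and *Krt18* encode the keratin pair of simple epithelia, the first that embryos make. *Krt8*, type II, lies on chromosome 15 at 101996711 to 102004342 (minus strand) and *Krt18*, type I, on the same chromosome at 102028216 to 102032026 (plus strand). *Krt8* had 20, 30 and 18 counts in NSCHRas-shp53, against 2, 0, 0 and 0 in NPCTKO. The groups did not overlap, at about 1 CPM in the higher one. The ratio of summed rates was 35.3 (95% exact interval 9.40 to 297, counting error only), and edgeR called it (adjusted p = 0.018). The call was kept in 8 of 12 alternatives and lost in the replicate block and without each of the NSCHRas-shp53 replicates (adjusted p = 0.0538 to 0.0788).

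*Krt18* did not follow its partner. It had 39, 30 and 33 counts in NSCHRas-shp53, against 44, 27, 1 and 10 in NPCTKO. NPCTKO 1 and 2 were at the NSCHRas-shp53 level, and NPCTKO 3 and 4 were below it. The log2 difference was 0.25 (SE 0.95, edgeR adjusted p = 0.889), and its sign turned without NPCTKO replicate 3 (-0.16), whereas it was 2.41 with NPCTKO 1 and 2 left out together (edgeR adjusted p = 0.112). The type I to type II balance, *Krt18* over *Krt8* FPKM, was 2.39, 1.38 and 2.30 in NSCHRas-shp53, against 51.6 in NPCTKO 1, and *Krt8* was listed at 0 in the other 3 NPCTKO libraries. *Krt19*, the smallest type I keratin and another partner of *Krt8*, lies on chromosome 11 at 100140810 to 100148665 (minus strand) and had 2, 19 and 8 counts in NSCHRas-shp53, against 0 in all 4 NPCTKO libraries. Its summed rate was at least 10.03-fold higher, taking a floor of 3 counts over the NPCTKO group, and it was tested by neither edgeR nor limma. DESeq2, run without the edgeR filter but with its own default filter on mean counts, called it (adjusted p = 0.0161). Without NSCHRas-shp53 replicate 2, which held 19 of its 29 counts, the bound was 5.10-fold, computed after the values were seen. Both genes of a keratin pair can share reads with processed copies elsewhere in the genome, which leaves *Krt8* and *Krt18* uncertain at these depths. The annotated copy *Krt8-ps* held 0 counts.

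The remaining keratins gave the members a frame. The count table names 54 keratin genes, 27 on chromosome 11 and 27 on chromosome 15, and 16 of them held 0 counts in all 7 libraries. Between 21 and 31 keratin genes had a count in an NSCHRas-shp53 library, and between 10 and 15 in an NPCTKO library. On chromosome 11, *Krt20* is the ninth keratin in order, with *Krt12* on one side, 6143 bases away, and *Krt23* on the other, 39823 bases away. *Krt12* had 24, 8 and 12 counts in NSCHRas-shp53 and 0 in all NPCTKO libraries, and *Krt23* had 8, 12 and 144 counts in NSCHRas-shp53, against 0, 3, 0 and 0 in NPCTKO. Further along, *Krt10*, a keratin of differentiating epidermis that neighbors *Krt12*, had 59, 95 and 54 counts in NSCHRas-shp53, against 55, 47, 126 and 79 in NPCTKO. The keratins beside *Krt20* were thus also nearly absent from NPCTKO, whereas *Krt10* overlapped between the models. Near-absence was not particular to these neighbors. Of the 27 keratins on chromosome 11, 9 held 0 counts in all 7 libraries. Apart from *Krt222*, *Krt28*, *Krt10* and *Krt17*, none of the 27 exceeded the 3 counts of *Krt23* over the NPCTKO libraries together. *Krt10* and *Krt23* were picked for their position after their values were seen, and *Krt12* shares bases with an antisense transcript.

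**Figure D4:**
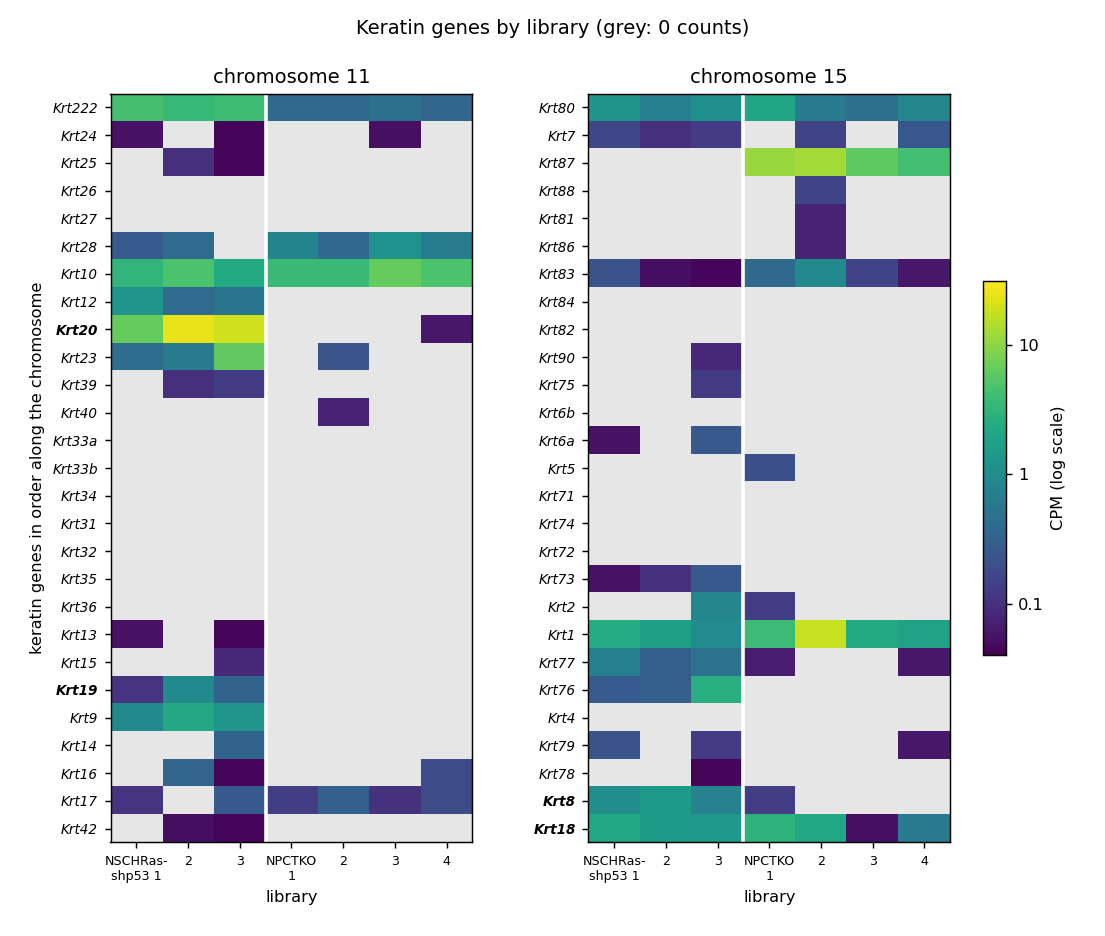
CPM of the 54 keratin genes (color, log scale; grey is 0 counts) in the 3 NSCHRas-shp53 libraries left of the 4 NPCTKO libraries, with genes in order along chromosomes 11 and 15 and members in bold. *Krt20* and its neighbors *Krt12* and *Krt23* are colored mainly in NSCHRas-shp53, and *Krt87* is colored in NPCTKO, where it has 72 to 169 counts, and is grey in NSCHRas-shp53.

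*Krt87*, a hair keratin, ran the other way. It had 0 counts in the 3 NSCHRas-shp53 libraries, against 169, 159, 117 and 72 in NPCTKO. Its summed rate was at least 166-fold lower in NSCHRas-shp53, with a floor of 3 counts over that group (edgeR adjusted p = 0.0045). It has no FPKM row of its own, so the value rests on the counts alone. *Krt9*, a keratin of palm and sole skin, had 18, 44 and 30 counts in NSCHRas-shp53 and 0 in all NPCTKO libraries, at least 31.8-fold higher (edgeR adjusted p = 0.012), and the call was lost without NSCHRas-shp53 replicate 2 or 3 and in the replicate block (adjusted p up to 0.0597). *Krt12*, a keratin of the cornea, was at least 15.2-fold higher on the same floor, and limma called it (1.64, SE 0.21, adjusted p = 0.0027). *Krt87*, *Krt9* and *Krt12* passed a filter on low values only through the model where they were high, so their calls are descriptions. *Krt222*, a keratin-like gene, was higher by 3.27 (SE 0.43, edgeR adjusted p = 0.0050), with 81, 69 and 93 counts in NSCHRas-shp53, against 6, 5, 9 and 6 in NPCTKO. It too passed the filter on low counts only through NSCHRas-shp53, so its call is a description.

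Most epithelial markers were at low levels. Of 6 epithelial markers tested by edgeR, of 12 listed, 3 were called higher and 0 lower, with a median of 1.66. At an unadjusted p under 0.05, 3 were higher and 2 lower (*Epcam* at -2.07 and *Grhl2* at -2.02). The summed FPKM of the list was 25.4 to 39.1 in NSCHRas-shp53 and 5.26 to 13.9 in NPCTKO. *Spint1*, at 16.6 to 32.4 FPKM in NSCHRas-shp53 and 0.154 to 0.896 FPKM in NPCTKO, carried this difference, and without it the sums overlapped, at 6.77 to 8.80 FPKM in NSCHRas-shp53 and 4.36 to 13.7 FPKM in NPCTKO. *Cldn7*, *Esrp1*, *Esrp2*, *Elf3* and *Grhl2* were under 0.5 FPKM in all 7 libraries, although *Grhl2* held 103 and 51 counts in NPCTKO 3 and 4. *Epcam* was at 0.539 to 1.98 FPKM in NSCHRas-shp53 and 2.12 to 12.2 FPKM in NPCTKO. *Cdh1* was at 1.05 to 2.25 FPKM in NSCHRas-shp53 and 0.353 to 3.29 FPKM in NPCTKO. Of 7 ependymal and choroid plexus markers tested, 3 were called higher and 0 lower, with a median of 2.47. Their sums were 20.9 to 451 FPKM in NSCHRas-shp53, the top value in replicate 3, and 3.08 to 25.9 FPKM in NPCTKO. *Ttr* alone held 431 FPKM of the sum in NSCHRas-shp53 replicate 3, beside 0.0579 and 0.101 FPKM in replicates 1 and 2. In NPCTKO it was at 3.14, 7.82, 0 and 18.1 FPKM. Of 2 mesothelial and meningeal markers tested, 1 was called higher and 0 lower, with a median of 1.16 and sums of 45.4 to 202 FPKM in NSCHRas-shp53 and 13.5 to 590.0 FPKM in NPCTKO. These sums were almost wholly *Ptgds*, and without it they were 4.37 to 12.8 FPKM in NSCHRas-shp53 and 0.326 to 0.699 FPKM in NPCTKO, while *Upk3b*, *Msln*, *Wt1*, *Lrrn4* and *Slc22a6* were under 0.5 FPKM in all 7. *Krt20* was highest in NSCHRas-shp53 replicate 2 and *Krt23* in replicate 3.

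**Figure D5:**
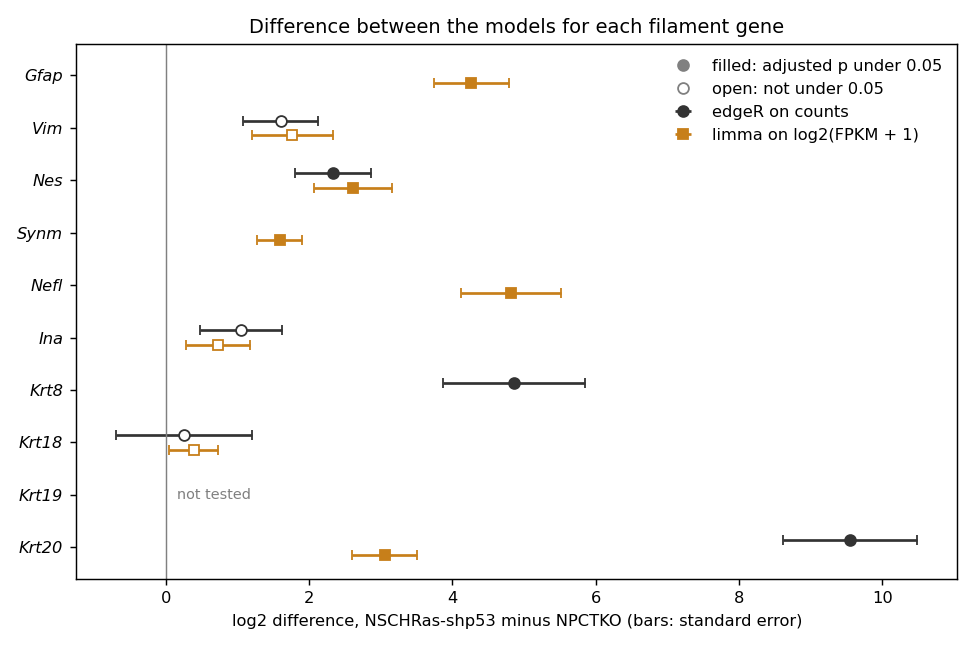
Log2 difference, NSCHRas-shp53 minus NPCTKO, of each member by edgeR on counts (circles) and limma on log2(FPKM + 1) (squares), with standard errors; filled symbols have an adjusted p under 0.05. *Gfap* (4.27), *Nes* (2.33 and 2.61), *Synm* (1.59), *Nefl* (4.82), *Krt8* (4.86) and *Krt20* (9.55 and 3.05) are filled, and *Vim*, *Ina* and *Krt18* are open.

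Compared per length, the order of the members within a model was led by *Vim*, followed by *Gfap*. In NSCHRas-shp53 the mean FPKM was 2570 ± 1514 for *Vim*, 867 ± 202 for *Gfap*, 124 for *Nes* and 101 for *Nefl* (SD, n = 3). *Vim* and *Gfap* stood apart from each other and from the rest, *Nes* and *Nefl* overlapped, and *Krt20*, *Synm* and *Ina*, at 8.81, 7.87 and 4.65 FPKM, overlapped with their neighbors in the order. In NPCTKO the mean was 731 ± 299 for *Vim*, 51.2 ± 31.7 for *Gfap* and 23.1 for *Nes* (SD, n = 4), and the last 2 overlapped. *Ina*, *Nefl*, *Synm* and *Krt18* came next at 2.79, 2.43, 1.87 and 0.855 FPKM, each overlapping its neighbor. *Krt8*, *Krt19* and *Krt20* closed the order in NPCTKO, whereas *Krt20* stood beside *Synm* in NSCHRas-shp53.

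The glial share of the filament transcripts differed as well. *Vim* made up 64.1%, 79.7% and 57.3% of the summed FPKM of the 10 members in NSCHRas-shp53, against 93.4%, 80.9%, 92.5% and 89.1% in NPCTKO. *Gfap* made up 30.0%, 14.6% and 33.6% in NSCHRas-shp53, against 4.09%, 15.7%, 2.21% and 7.21% in NPCTKO. NSCHRas-shp53 replicate 2, with its high *Vim*, and NPCTKO 2, with its low *Vim*, met at about the same ratio of *Gfap* to *Vim*, 0.183 and 0.195. *Nes* to *Vim* overlapped too, at 0.0329 to 0.0737 in NSCHRas-shp53 and 0.0194 to 0.0425 in NPCTKO.

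Genes whose pattern over the 7 libraries lay closest to a member were ranked by the mean absolute difference of centred log2(value + 1). For *Gfap* the closest of 13484 genes were *Mlc1*, *S1pr1* and *Aqp4* (0.37, 0.39 and 0.41), genes that astrocytes express, and *Krt20* stood at place 127 and *Nefl* at place 286. For *Nefl* they were *Pthlh*, *Nppb* and *Calcb* (0.48, 0.56 and 0.57), which encode secreted hormones or peptides, and *Krt20* stood at place 57 and *Gfap* at place 104. For *Vim* the closest of 16090 genes were *Casq1*, *Lgals1* and *Ppm1j* (0.18, 0.19 and 0.21), and *Nes* stood at place 2243. For *Krt8* they were *Jsrp1*, mt-Tr and Gm18782 (0.06, 0.08 and 0.09), and *Krt18* stood only at place 5043. These are descriptions over 7 libraries that share 2 groups.

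The other filament genes went both ways. Of 61 listed, 18 were tested by edgeR, with 3 called higher (*Des*, *Krt9* and *Krt222*), 3 called lower (*Prph*, *Lmnb2* and *Krt87*) and a median of -0.47. By limma, 15 were tested, with 5 called higher (*Des*, *Nefm*, *Iffo2*, *Krt12* and *Krt222*), 3 called lower (*Prph*, *Lmnb2* and *Bfsp2*) and a median of -0.33. *Prph*, which encodes peripherin, a type III filament of peripheral neurons, had 7.49, 2.79 and 2.42 CPM in NSCHRas-shp53, against 66.9, 73.9, 63.3 and 14.6 CPM in NPCTKO. It was 12.9-fold lower in NSCHRas-shp53 (log2 -3.69, SE 0.70, edgeR adjusted p = 0.0145), opposite to *Nefl*, and the call was lost without NSCHRas-shp53 replicate 2 or 3 (adjusted p up to 0.0757). *Des*, the desmin gene of muscle and mural cells, had 16.9, 6.09 and 8.001 CPM in NSCHRas-shp53, against 3.03, 2.42, 2.19 and 0.907 CPM in NPCTKO (log2 2.27, SE 0.56, edgeR adjusted p = 0.0341). That call was lost in the replicate block and without NPCTKO replicate 2 or 4 or any 1 of the NSCHRas-shp53 replicates (adjusted p up to 0.121). The lamins, which line the nucleus, had negative differences. *Lmnb2* was called (log2 -1.43, SE 0.35, edgeR adjusted p = 0.035), whereas *Lmnb1* (-1.26, adjusted p = 0.103) and *Lmna* (-0.74, adjusted p = 0.304) were not. The *Lmnb2* call was lost in the replicate block and without NPCTKO replicate 1 or 2 or any 1 of the NSCHRas-shp53 replicates (adjusted p up to 0.155). It was also lost with NPCTKO 1 and 2 left out together (-0.88, adjusted p = 0.0571).

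Of the 2 nuclear filament-like genes, *Iffo1* had a log2 difference of -0.50 (edgeR adjusted p = 0.311), and *Iffo2* had 0.88 by edgeR (adjusted p = 0.208) and 1.44 by limma (adjusted p = 0.021), a call lost without NPCTKO replicate 1 or any 1 of the NSCHRas-shp53 replicates (adjusted p up to 0.0898). *Bfsp2*, a lens filament gene, had 12.3, 6.20 and 3.34 FPKM in NSCHRas-shp53, against 78.3, 55.4, 44.8 and 10.01 FPKM in NPCTKO, but 0 to 5 counts and 9 to 30 counts in the same libraries. The limma call (-2.38, adjusted p = 0.0487) was lost in 10 of 13 alternatives (adjusted p up to 0.189) and edgeR did not call it (-2.86, adjusted p = 0.0682).

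Linker and partner proteins tie filaments to junctions and to the rest of the cytoskeleton. Of 21 listed, 19 were tested by edgeR, with 3 called higher, 0 lower and a median of 0.93, and 17 by limma, with 3 called higher, 0 lower and a median of 0.93. At an unadjusted p under 0.05, 6 were higher and 1 lower by edgeR, and 9 higher and 0 lower by limma. *Mical2*, which encodes an actin-oxidizing enzyme, had 81.2, 34.9 and 96.7 CPM in NSCHRas-shp53, against 10.7, 7.02, 7.61 and 23.1 CPM in NPCTKO (log2 2.55, SE 0.53, edgeR adjusted p = 0.0193), and limma called it as well (2.38, adjusted p = 0.0034), although the edgeR call was lost without NSCHRas-shp53 replicate 1 or 3 (adjusted p up to 0.0904) and with NPCTKO 1 and 2 left out together (2.25, adjusted p = 0.0529). *Evpl*, the envoplakin gene of epithelial junctions, had 9.56, 16.5 and 11.4 CPM in NSCHRas-shp53, against 4.44, 2.18, 3.23 and 3.63 CPM in NPCTKO (log2 1.89, SE 0.41, edgeR adjusted p = 0.0224). That call was lost without NSCHRas-shp53 replicate 2 or 3 and in the replicate block (adjusted p up to 0.106). *Pkp1*, the gene of the desmosomal protein plakophilin 1, had 40, 60 and 859 counts in NSCHRas-shp53, against 0, 5, 3 and 1 in NPCTKO. Its edgeR call (adjusted p = 0.0187) was lost without NSCHRas-shp53 replicate 3 (adjusted p = 0.0777) and in the replicate block. It was not called by limma (1.41, adjusted p = 0.133). *Pkp1* passed the filter on low counts only through NSCHRas-shp53, so its edgeR call is a description. *Hspb1*, a small heat shock chaperone that binds filaments, differed by 1.01 (edgeR adjusted p = 0.0816) and by 1.55 by limma (adjusted p = 0.0195), a call lost without NSCHRas-shp53 replicate 2 or 3 (adjusted p = 0.0747 and 0.0884). *Lmo7* (1.68, adjusted p = 0.0995), *Pkp4* (0.93, adjusted p = 0.126) and *Padi2* (-1.49, adjusted p = 0.15) were not called by edgeR.

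Markers of oligodendrocyte precursors went the opposite way to the glial filaments. Of 7 tested, 4 were called lower and 0 higher in NSCHRas-shp53 by edgeR, with a median of -2.12, and their summed FPKM was 182 to 406 in NSCHRas-shp53 and 901 to 1748 in NPCTKO. Their part in the filament results was not tested.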

How the data were processed

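Bulk RNA was sequenced from 3 NSCHRas-shp53 samples (whole tissue) and 4 NPCTKO samples (sorted cells). The deposited table holds unnormalized counts of each gene. For it, the authors trimmed reads using Cutadapt (1.16 in the submitters' notes) and aligned them to mm10 using TopHat 2.1.1. How reads were counted is not given there, and gene lengths equal whole gene spans, so intronic reads may be included. A second deposited table gives FPKM, which the authors computed in Cufflinks 2.2.1. The methods name RNAiso Plus and the labels TRIZOL and a non-directional kit.

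Models were compared as NSCHRas-shp53 minus NPCTKO in R 4.3.3 by the quasi-likelihood test of edgeR 4.0.16, after filterByExpr and TMM scaling, and with limma 3.58.1 on log2(FPKM + 1) for genes with a mean of at least 0.5 FPKM, with 1-name rows summed per gene. Rows with no name (3767 of 28538) or several (925) were not used. CPM uses TMM-scaled library sizes. The edgeR prior count was 0.125. A count of 3 was the floor (0.130 to 0.234 CPM per library), and intervals and floors cover counting error only. DESeq2 1.42.0, scalings, filters, pseudocounts, a replicate block and left-out libraries were alternatives. Scripts were tested on simulated data. Python 3.11.15 drew the figures. The design asked for a signature in protein sequences, which was not analysed here.

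The 10 members, the lists of other filaments and partners and the 9 marker lists were chosen with earlier results of these data known. Named were all members, other filament genes with a mean of at least 10 CPM in a model or called, up to 8 called and 4 uncalled partners by p, and the 3 genes most like *Gfap*, *Vim*, *Krt8* and *Nefl*. CPM was planned for the likeness of *Nefl*, which has 0 counts, so FPKM was used.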

Additional observations from a re-analysis of the deposited data

Results flagged for a closer look

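Among the 4 NPCTKO libraries, single values stood apart where the rest were at 0. The gap from the highest library to the nearest other, divided by the whole range, was 1 for *Krt20* CPM (NPCTKO 4, with 1 count), 1 for *Krt8* CPM (NPCTKO 1, with 2 counts) and 1 for *Krt8* FPKM (the same library). Any single count among zeros gives this value, and chance flags about 1 in 20 groups.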

How the results depend on the processing

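Genes called higher by edgeR numbered 1251, against 2179 by DESeq2, 718 with a replicate block and 415 to 1387 with a library left out. Genes called lower numbered 850, against 1852 by DESeq2, 540 on library totals, 323 with a replicate block and 124 to 1208 with a library left out. Members called higher by edgeR numbered 3, against 5 by limma on FPKM and 5 by DESeq2. DESeq2 called *Vim* and, without the edgeR filter on low counts, *Krt19* besides. By edgeR, 2 were called with a replicate block and 1 to 3 with a library left out. The lowest number came without each NSCHRas-shp53 replicate in turn, where *Krt20* was kept. By limma, genes called higher numbered 1248 (620 to 1178 with a library left out), genes called lower 848 (494 with a replicate block, 219 to 995 with a library left out) and members called higher 5 (4 to 5). Members called lower stayed at 0 in all of these fits. TMM moved the median of all genes to -0.10, against 0.09 on library totals. *Krt18* (0.25) ran from -0.16 to 0.95 with a library left out, below 0 without NPCTKO replicate 3 or 4, and was 2.41 with NPCTKO 1 and 2 left out together, in no fit called. The same-numbered libraries correlated in their deviations at 0.279, -0.193 and 0.193, so the numbers do not pair the samples, and the replicate block is no paired analysis. Fits without a library leave 2 or 3 samples in its group. Counts near 0 limit *Krt8*, *Krt19* and *Krt20* in NPCTKO.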
